A study of Mus musculus with 29 samples.

Results

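The YAP and TAZ pathway was followed through 10 genes in primary mouse cardiac fibroblasts, the cells that make and maintain the collagen matrix of the heart. They are the coactivator genes Yap1 and Wwtr1 (which encodes TAZ), their DNA-binding partner Tead1, the kinase gene Lats2, the scaffold genes Amotl1, Amotl2 and Ajuba, and the target genes Ankrd1, Crim1 and Axl. They were taken by name from the deposited count table as pathway genes outside the CCN family, and are 10 of its 55357 genes. Earlier results of these data were known when they were chosen. Their counts and medians beside those of all genes are therefore descriptive only. RNA was counted in 29 libraries of 10 groups. Fresh YCF and fresh ACF are cells taken directly from young and from aged mice, with 3 libraries each. The other 8 groups are young cells (YCF) or aged cells (ACF) after 48 h on DECIPHER substrates, in which extracellular matrix (ECM) of the heart is held in a hydrogel. The 4 substrates pair a soft or stiff gel with ECM from young hearts (Y) or aged hearts (A), and are named SoftY, StiffY, SoftA and StiffA. Each cultured group had 3 libraries, except YCF+SoftY with 2. The sources used here give no strain, age in months, sex or gel stiffness. Replicates are termed biological in the labels but are not tied to animals, so p-values measure only the spread between these libraries. The library names carry 1 letter per substrate, so any preparation that followed the letter cannot be told apart from the substrate.

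In the Hippo pathway, a kinase cascade that ends in the LATS kinases phosphorylates YAP and TAZ, which keeps them in the cytoplasm and leads to their degradation. Unphosphorylated YAP and TAZ enter the nucleus, bind TEAD factors and switch on target genes, among them feedback inhibitors such as Lats2 and Amotl2. In fibroblasts, spreading on stiff matrix and tension in the actin cytoskeleton favour the nuclear form, and the mRNA levels of Yap1 and Wwtr1 do not report where the proteins are.

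Totals ran from 1192668 to 3275089 counts per library, and 4 libraries had under 1500000 (YCF+StiffY replicate 3, YCF+SoftA replicates 1 and 3, ACF+SoftA replicate 1). Levels are CPM, a library's counts rescaled to a common total with TMM factors, and group levels are mean ± SD. Gene positions are those of the count table (mm39 by the submitters' processing notes). Each change is a log2 fold change with its SE, and p-values come from the quasi-likelihood test of edgeR, Benjamini-Hochberg adjusted over all genes of a comparison. A gene is said to rise or fall where its adjusted p was under 0.05, with no fold threshold. Intervals are 95% intervals from the SE. All 10 genes passed the filter on low counts in every comparison. Of 12 fibroblast marker genes none was at 0 in any group, and their summed level was 7438 to 39047 CPM per library. Of 13 cardiomyocyte markers 2 were at 0 in all libraries and the sum was 1.15 to 24.5 CPM. In bulk RNA, fewer cells of a type and less RNA per cell cannot be told apart.

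TEAD factors are known to bind the sequence GGAATG, which reads CATTCC on the other strand. RefSeq sequence of the older build GRCm38.p6 was searched for both in the 250 bases before each start site. Of the 10 genes, 9 had such a window, and 7 of these 9 held at least 1 match, against 14.4% of 27025 genes with a window. The windows of Ankrd1 and Ajuba held 2 matches each. Those of Yap1, Wwtr1, Amotl2, Crim1 and Axl held 1, and those of Lats2 and Amotl1 held none. The windows of Ankrd1, Amotl2 and Axl are shown because these genes rose on stiff substrates in young cells, and that of Ajuba because it is the other window with 2 matches. Each is written 5′ to 3′ on the gene's own strand, with the matches in capitals. They lie at chr19:36119845-36120094 (Ankrd1, minus strand), chr9:102717554-102717803 (Amotl2, plus strand), chr7:25788734-25788983 (Axl, minus strand) and chr14:54577662-54577911 (Ajuba, minus strand) in GRCm38.p6.
Ankrd1: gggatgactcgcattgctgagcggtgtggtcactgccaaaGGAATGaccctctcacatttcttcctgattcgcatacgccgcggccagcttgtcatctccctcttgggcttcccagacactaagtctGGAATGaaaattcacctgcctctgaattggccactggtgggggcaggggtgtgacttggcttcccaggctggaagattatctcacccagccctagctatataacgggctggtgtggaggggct
Amotl2: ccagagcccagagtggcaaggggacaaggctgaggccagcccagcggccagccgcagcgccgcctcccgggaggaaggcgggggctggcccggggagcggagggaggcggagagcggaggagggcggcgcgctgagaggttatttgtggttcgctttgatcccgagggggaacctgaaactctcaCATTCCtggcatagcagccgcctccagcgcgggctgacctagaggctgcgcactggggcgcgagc
Axl: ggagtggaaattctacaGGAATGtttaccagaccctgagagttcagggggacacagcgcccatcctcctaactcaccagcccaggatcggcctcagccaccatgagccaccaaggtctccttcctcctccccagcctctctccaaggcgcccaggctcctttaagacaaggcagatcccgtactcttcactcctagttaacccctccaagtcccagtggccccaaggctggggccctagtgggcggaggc
Ajuba: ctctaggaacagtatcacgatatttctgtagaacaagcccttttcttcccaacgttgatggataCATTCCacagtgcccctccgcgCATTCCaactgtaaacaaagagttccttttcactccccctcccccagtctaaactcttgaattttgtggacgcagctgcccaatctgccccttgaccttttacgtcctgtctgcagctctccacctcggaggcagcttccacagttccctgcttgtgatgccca
The matches began 210 and 123 bases before the start site in Ankrd1, 65 in Amotl2, 233 in Axl, and 186 and 164 in Ajuba. A match is a run of letters and was not measured as a binding site.

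Per length, the target genes Axl and Ankrd1 were far above the others. The median of the 10 group means was 366 CPM per kb of exon for Axl and 327 for Ankrd1, against 47.9 for Amotl2. The scale then fell through Amotl1 (17.4), Lats2 (15.6), Wwtr1 (14.2), Ajuba (14.1), Tead1 (9.68) and Crim1 (8.93) to Yap1 (2.09). Yap1 rested on 18 to 74 counts per library and had the highest median coefficient of variation over groups, 20.9%, although the largest in any 1 group was that of Lats2 at 44.6%. The genes differed in how far their level moved between groups. The highest group mean was 3.48 times the lowest for Amotl2, 3.23 times for Ankrd1, 2.97 times for Crim1 and 2.75 times for Ajuba, but only 1.49 times for Yap1 and 1.48 times for Axl. Ordered by level, neighbouring groups had library ranges that did not overlap in 4 of 9 pairs for Ankrd1 and for Amotl2 and in 2 of 9 for Axl. Tead1, Ajuba and Crim1 had 1 such pair each, and Yap1, Wwtr1, Lats2 and Amotl1 had none. The share of such pairs over all genes was not counted. Counting noise widens the ranges of genes with few counts, so these numbers do not rank the genes by their response.

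**Figure D1:**
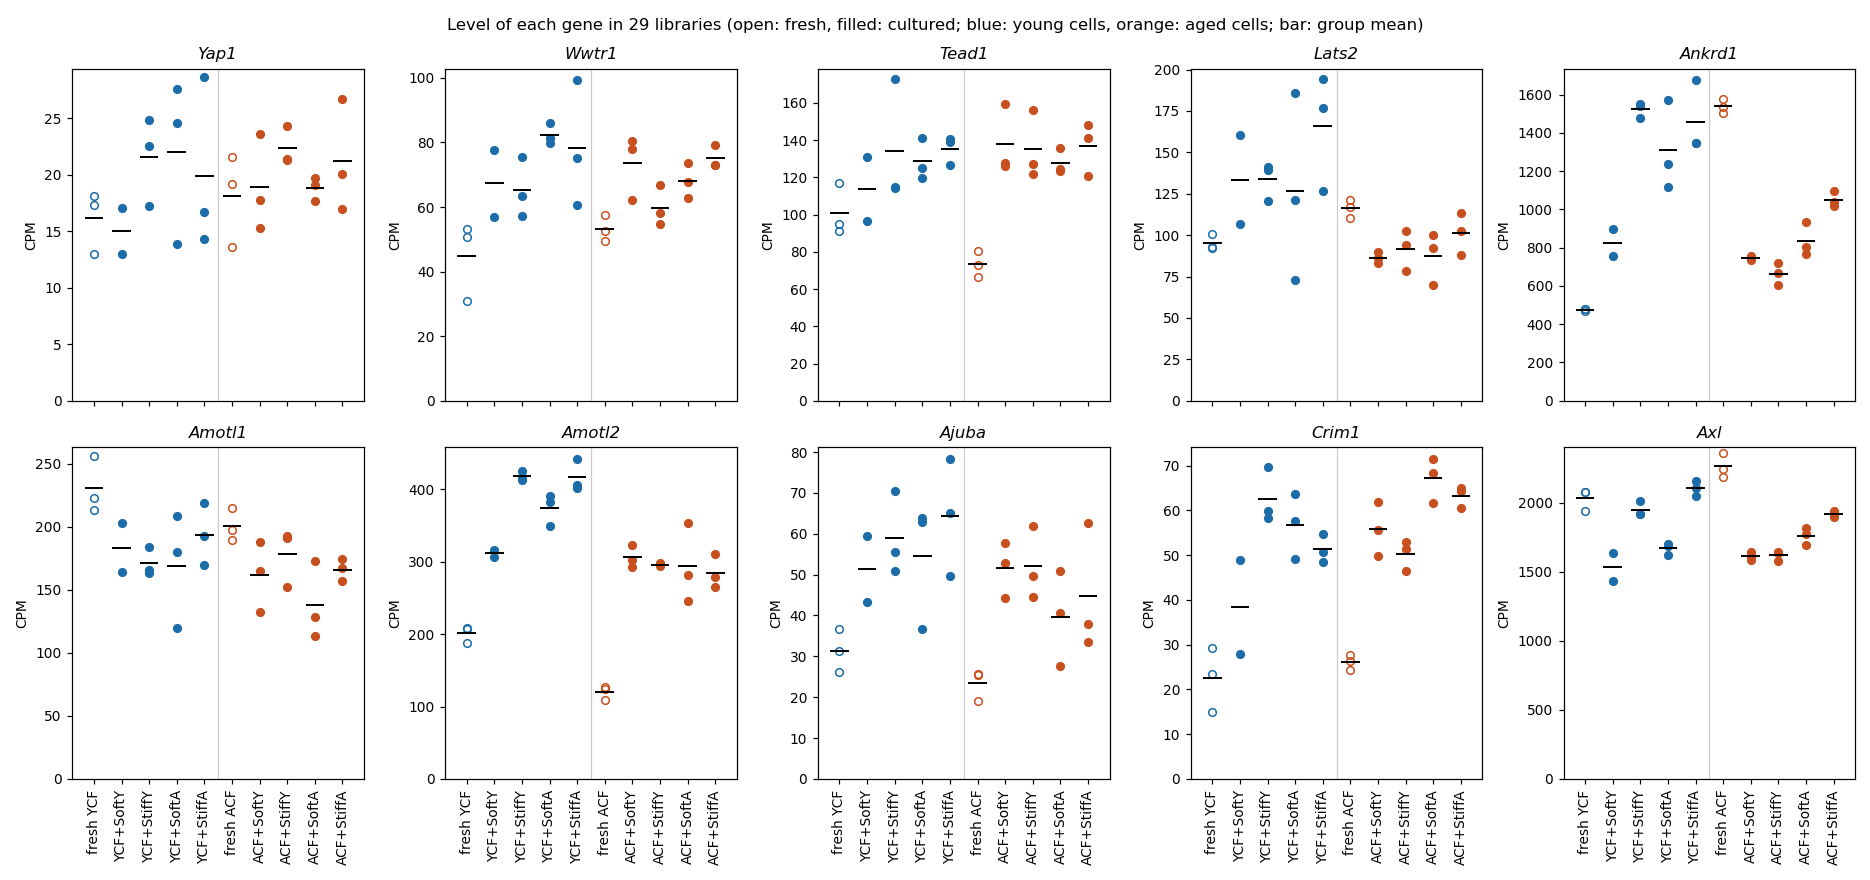
Level of each of the 10 genes in all 29 libraries, in CPM on a linear axis from 0, with 1 point per library, open points for fresh and filled points for cultured cells, blue for young and orange for aged cells, and a bar at the group mean. Ankrd1 was near 477 CPM in fresh YCF and 1537 CPM in fresh ACF, and the cultured groups lay between them or close to the upper level.

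Fresh aged cells differed from fresh young cells most in Ankrd1, which rose, and in Amotl2, which fell. Ankrd1 (chr19:36089361-36097500, minus strand) encodes an ankyrin repeat protein that is induced in the stressed heart and is a common readout of YAP activity. It measured 481, 471 and 477 CPM in the 3 young libraries and 1507, 1575 and 1537 CPM in the 3 aged ones. Every aged library lay above every young one, and the change was 1.66 ± 0.05 (SE, adjusted p = 5.1e-12). Amotl2 (chr9:102593871-102610618, plus strand) encodes an angiomotin family scaffold that holds YAP in the cytoplasm and is itself a YAP target. It went the other way, from 207, 208 and 188 CPM in young to 125, 127 and 109 CPM in aged libraries. These ranges did not overlap either, and the change was -0.78 ± 0.08 (SE, adjusted p = 6.7e-06).

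Of the 10 genes, 6 passed the test in fresh cells, 3 in each direction, where 31.8% of all 11786 genes tested passed (15% higher, 16.8% lower). The median change of the 10 was 0.13, against -0.02 over all genes. Besides Ankrd1, the genes that rose were Lats2, by 0.25 ± 0.09 (SE, adjusted p = 0.048), and the receptor tyrosine kinase gene Axl, by 0.12 ± 0.04 (SE, adjusted p = 0.045). Besides Amotl2, the transcription factor gene Tead1 fell by a log2 change of -0.49 ± 0.12 (SE, adjusted p = 0.0063), from 91.4, 94.8 and 117 CPM to 73.1, 66.3 and 80.3 CPM, with no overlap. Amotl1 fell by a log2 change of -0.24 ± 0.08 (SE, adjusted p = 0.037), and its ranges overlapped. The remaining changes were -0.47 (adjusted p = 0.075) for Ajuba, 0.21 (adjusted p = 0.40) for Wwtr1, 0.17 (adjusted p = 0.60) for Crim1 and 0.13 (adjusted p = 0.70) for Yap1. Both coactivator genes were thus measured with intervals that span 0, -0.36 to 0.63 for Yap1 and -0.17 to 0.59 for Wwtr1. Only the calls of Ankrd1, Amotl2 and Tead1 remained when any single library was left out. Lats2 lost its call without each of the 6 libraries (0.23 to 0.30, adjusted p 0.058 to 0.14). Amotl1 lost it without fresh YCF replicate 2 (-0.15), fresh ACF replicate 2 (-0.19) or fresh ACF replicate 3 (-0.23), and Axl without fresh YCF replicate 1 (0.092) or fresh ACF replicates 1 (0.13) or 2 (0.096). Ajuba passed without fresh YCF replicate 3 (-0.56, adjusted p = 0.048). DESeq2 and the replicate block by title number each called 3 of the 10 genes in this comparison, without Lats2, Amotl1 and Axl. In fresh cells this block pairs young and aged libraries of the same title number, a pairing that the labels do not tie to an animal or day. Lats2 was also lost with no filter (adjusted p = 0.11) and, like Amotl1 (adjusted p = 0.36), in 1 fit of all 29 libraries (adjusted p = 0.32). Summed fibroblast markers were 9149 to 9729 CPM in fresh young and 7438 to 7962 CPM in fresh aged libraries. The 12 markers went both ways, 3 higher and 6 lower in aged cells. Mean Col1a1 was 1320 CPM in fresh young and 255 CPM in fresh aged cells, but Dcn was 2611 and 3741 CPM. Summed myeloid markers were 218 to 222 CPM in fresh young and 387 to 434 CPM in fresh aged libraries, and endothelial markers 181 to 199 and 240 to 249 CPM. Their part in these changes was not tested.

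Of the 25 other Hippo kinases and regulators, 21 were tested in fresh cells, and aged cells held more of 5 and less of 3, beside 31.8% of all genes called. Those with the smallest p were the TEAD cofactor gene Vgll3 at 0.32 ± 0.05 (SE, adjusted p = 3.9e-04), Tead2 at -0.79 ± 0.15 (SE, adjusted p = 9.4e-04), and the kinase gene Taok1 at -0.36 ± 0.08 (SE, adjusted p = 0.003). Of 14 further YAP and TAZ target genes 12 were tested, and 2 of them were higher and 5 lower. The tissue factor gene F3 stood at 2.76 ± 0.08 (SE, adjusted p = 7.8e-12), Rbms3 at -0.45 ± 0.09 (SE, adjusted p = 0.0014) and Dock5 at 0.85 ± 0.17 (SE, adjusted p = 0.0019). The matricellular CCN targets rose, Ccn1 by 1.33 ± 0.04 (SE, adjusted p = 3.3e-11) and Ccn2 by 1.34 ± 0.22 (SE, adjusted p = 3.6e-04).

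**Figure D2:**
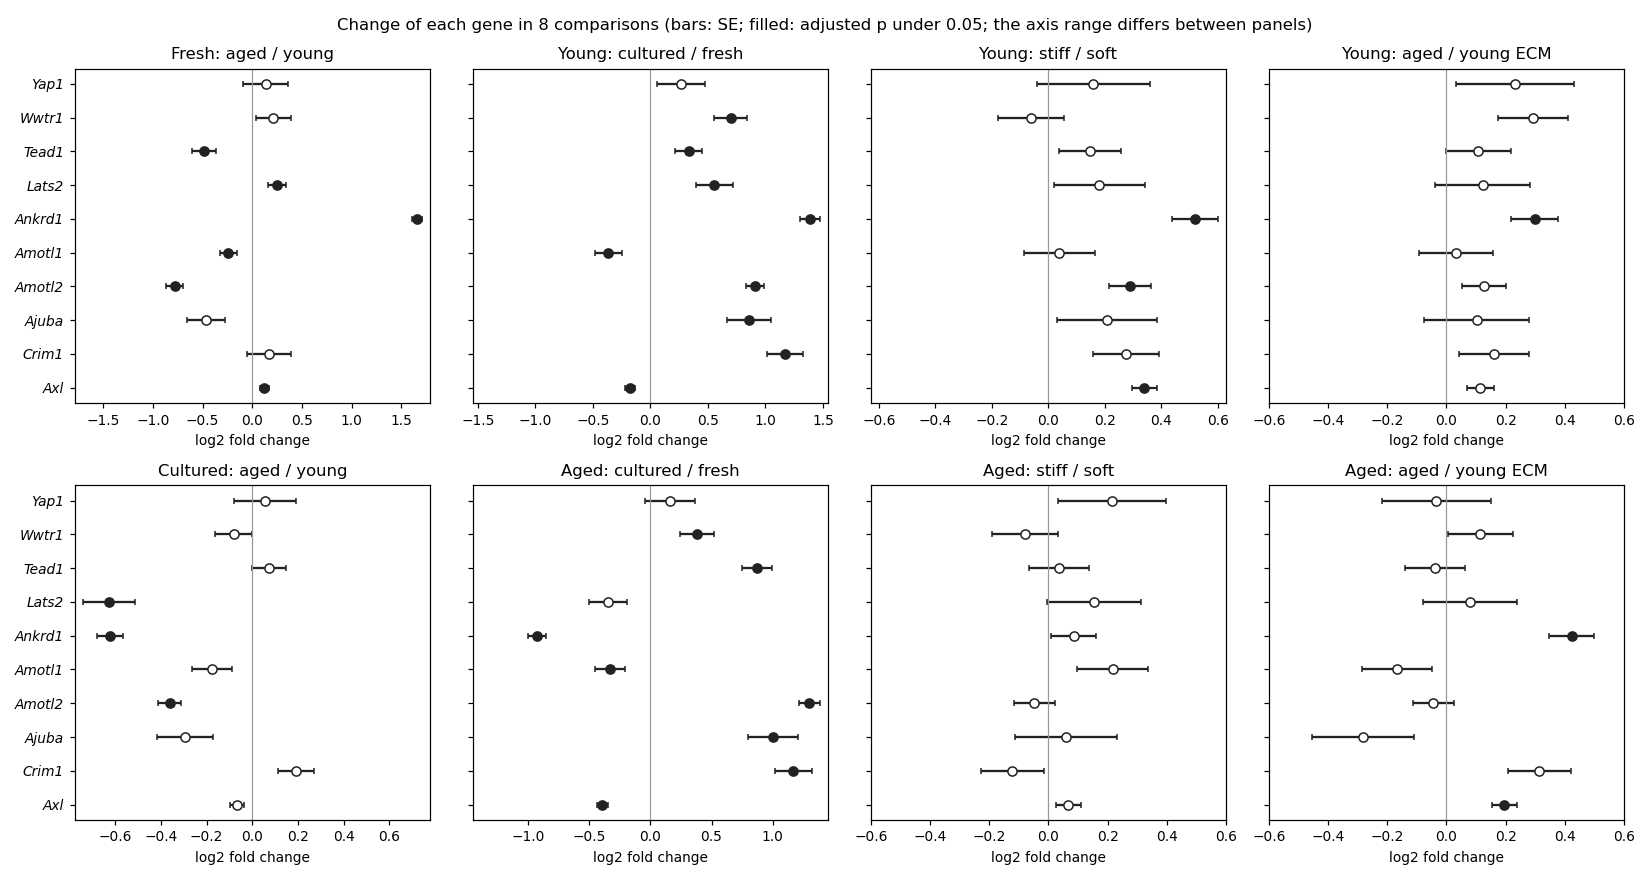
Log2 fold change of the 10 genes in 8 comparisons, with bars for the SE and filled points for an adjusted p under 0.05; the horizontal range differs between panels. Ankrd1 was higher in fresh aged cells (1.66) and lower in cultured aged cells (-0.62), each relative to young cells of the same state.

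Culture changed most of the 10 genes, as it did most of all genes tested, and Ankrd1 changed in opposite directions at the 2 ages. In young cells, 9 of 10 genes passed the test between the mean of the 4 substrates and fresh cells, 7 higher and 2 lower, where 56.9% of 13523 genes passed (27.1% higher, 29.9% lower). In aged cells 8 of 10 passed, 5 higher and 3 lower, against 62.4% of all genes (29.9% higher, 32.5% lower). The median of the 10 was 0.63 in young and 0.27 in aged cells, against -0.03 and -0.01 over all genes. Fresh cells were not cultured, so that plating, medium, 48 h and substrate cannot be told apart.

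Ankrd1 rose in young cells by 1.38 ± 0.09 (SE, adjusted p = 1.4e-14) and fell in aged cells by a log2 change of -0.92 ± 0.07 (SE, adjusted p = 2.7e-12). The 11 cultured young libraries ran from 755 to 1676 CPM with a median of 1348, all above the fresh young ones. The 12 cultured aged libraries ran from 603 to 1095 CPM with a median of 761, all below the fresh aged ones. The difference between the responses, the interaction of culture and cell age, was -2.31 ± 0.11 (SE, adjusted p = 4.7e-16). Amotl2 rose at both ages, by 0.91 ± 0.08 (SE, adjusted p = 4.5e-11) in young and 1.299 ± 0.08 (SE, adjusted p = 2.4e-14) in aged cells. Its cultured libraries, 307 to 442 CPM in the young libraries and 246 to 354 CPM in the aged, lay above all fresh ones of their age. The gain in aged cells was larger by 0.39 ± 0.11 (SE, adjusted p = 0.01). Without fresh ACF replicate 3 this interaction was 0.32 (adjusted p = 0.064).

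The Hippo kinase gene Lats2 (chr14:57927119-57995846, minus strand), whose product inhibits YAP and TAZ, rose in cultured young cells by 0.56 ± 0.16 (SE, adjusted p = 0.0042). In cultured aged cells its change was -0.35 ± 0.16 (SE, adjusted p = 0.051), which did not pass the test. Without YCF+SoftA replicate 2 or replicate 3 the aged change was -0.32 (adjusted p = 0.026) or -0.33 (adjusted p = 0.023). It also passed with no filter (-0.32, adjusted p = 0.0066), with the replicate block by title number (-0.35, adjusted p = 0.018) or library number (-0.35, adjusted p = 0.0090), and without the 4 libraries under 1500000 counts (-0.34, adjusted p = 0.014). The interaction was -0.91 ± 0.22 (SE, adjusted p = 0.0034). Its libraries overlapped at both ages, at 72.8 to 194 CPM in cultured young and 69.9 to 114 CPM in cultured aged cells, beside 92.4 to 101 and 111 to 121 CPM in fresh ones. Lats2 shares 56443 of the 68728 bases it spans with Gm49361 on the same strand, which had 0 counts. Whether reads that fit both genes were left out of the Lats2 counts was not tested, so its levels may rest on part of its reads.

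Axl (chr7:25456698-25488131, minus strand), the receptor for the ligand Gas6, fell at both ages, by a log2 change of -0.18 ± 0.04 (SE, adjusted p = 0.0013) in young and -0.39 ± 0.04 (SE, adjusted p = 3.9e-09) in aged cells, with an interaction of -0.22 ± 0.06 (SE, adjusted p = 0.014). With no filter, the young change was -0.14 (adjusted p = 0.060) and the interaction -0.22 (adjusted p = 0.086). In aged cells all 12 cultured libraries (1581 to 1938 CPM) lay below the fresh ones. In young cells the ranges overlapped. The Axl interaction was lost without any of 8 single libraries, at -0.21 to -0.18 and an adjusted p of 0.055 to 0.078 (fresh YCF replicates 1 and 2, fresh ACF replicate 2, ACF+SoftY replicates 1 and 2, ACF+StiffY replicate 1, YCF+StiffA replicate 3, ACF+StiffA replicate 3).

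Of the coactivators and their partner, Wwtr1 (chr3:57363070-57483332, minus strand) rose in culture by 0.70 ± 0.14 (SE, adjusted p = 1.1e-04) in young and 0.38 ± 0.14 (SE, adjusted p = 0.02) in aged cells. All 11 cultured young libraries (56.8 to 99.5 CPM) were above the fresh ones at 30.8, 50.9 and 53.3 CPM. The aged call was lost without fresh ACF replicate 2 (0.37, adjusted p = 0.062) or replicate 3 (0.32, adjusted p = 0.10). Tead1 (chr7:112278525-112506015, plus strand) rose by 0.33 ± 0.12 (SE, adjusted p = 0.016) in young and 0.87 ± 0.12 (SE, adjusted p = 3.4e-07) in aged cells, and the interaction was 0.54 ± 0.17 (SE, adjusted p = 0.019). All 12 cultured aged libraries (121 to 159.6 CPM) were above the fresh aged ones. In young cells the Tead1 ranges overlapped, and the call was lost without fresh YCF replicate 1 (0.30, adjusted p = 0.069) or 2 (0.30, adjusted p = 0.084). The interaction was lost without fresh YCF replicate 3 (0.44, adjusted p = 0.090) or fresh ACF replicate 2 (0.47, adjusted p = 0.078). Yap1 (chr9:7932000-8004598, minus strand) was measured at 0.27 ± 0.21 (SE, adjusted p = 0.28) in young and 0.16 ± 0.20 (SE, adjusted p = 0.50) in aged cells, with intervals of -0.15 to 0.69 and -0.25 to 0.58.

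Among the scaffold genes, Ajuba (chr14:54804929-54815016, minus strand), which encodes a LIM protein that binds LATS kinases, rose at both ages, by 0.86 ± 0.19 (SE, adjusted p = 3.5e-04) and 1.004 ± 0.21 (SE, adjusted p = 1.0e-04). Fresh cells held 36.6, 31.3 and 26.2 CPM in young and 25.6, 19.1 and 25.5 CPM in aged libraries, and every cultured library of the same age was higher. Amotl1 (chr9:14453262-14556353, minus strand), the other angiomotin family gene, fell by a log2 change of -0.36 ± 0.12 (SE, adjusted p = 0.011) and -0.33 ± 0.12 (SE, adjusted p = 0.019). These calls were lost without fresh YCF replicate 2 (-0.27, adjusted p = 0.10) in young and without fresh ACF replicate 1 (-0.28, adjusted p = 0.10) in aged cells. Amotl1 and Amotl2 thus changed in opposite directions on culture at both ages. Crim1 (chr17:78507677-78684022, plus strand), a transmembrane protein gene known as a YAP target, rose by 1.17 ± 0.15 (SE, adjusted p = 1.2e-07) in young and 1.17 ± 0.15 (SE, adjusted p = 7.6e-08) in aged cells, with an interaction of -0.00 ± 0.19 (SE, adjusted p = 1.00). Crim1 shares 7382 bases with Fez2 on the other strand, which had 14014 counts over the 29 libraries against 3220 of Crim1. The sources used here do not state the strand setting of the counting, so reads from the shared stretch cannot be told apart and every Crim1 value is uncertain.

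The interaction of culture and cell age passed the test for 5 of the 10 genes, 2 higher and 3 lower, against 20.6% of all genes (10.5% higher, 10.1% lower). Of the other Hippo genes 24 were tested, and their counts on culture stand beside 56.9% of all genes called in young and 62.4% in aged cells. On culture, 10 were higher and 3 lower in young cells, led by Map4k4 at -1.21 ± 0.11 (SE, adjusted p = 2.9e-11), Vgll3 at 1.04 ± 0.11 (SE, adjusted p = 2.2e-09) and Wwc2 at 0.87 ± 0.13 (SE, adjusted p = 1.3e-06). The counts in aged cells were 9 higher and 7 lower, led by Map4k4 at -1.49 ± 0.10 (SE, adjusted p = 1.5e-13) and Tead3 at 2.31 ± 0.28 (SE, adjusted p = 2.1e-08). The interaction was higher for 2 and lower for 6 of the 24. Of the 14 further targets 13 were tested, beside the same shares. The counts were 7 higher and 3 lower in young cells, and 6 higher and 4 lower in aged ones. The secreted matrix gene Ccdc80 rose by 3.57 (adjusted p = 3.6e-17) in young and 3.97 (adjusted p = 2.8e-18) in aged cells, and the growth factor gene Tgfb2 by 3.60 in aged cells (adjusted p = 3.4e-20). F3 rose in young cells by 2.17 ± 0.09 (SE, adjusted p = 2.2e-18) and fell in aged cells by a log2 change of -0.86 ± 0.07 (SE, adjusted p = 1.7e-11), with an interaction of -3.02 ± 0.12 (SE, adjusted p = 1.7e-18), and Ccn1 did the same at 1.49 and -0.83 (interaction -2.32 ± 0.09 (SE, adjusted p = 1.7e-18)). Ccn2 rose at both ages, by 2.43 and 0.74, with an interaction of -1.69 ± 0.22 (SE, adjusted p = 6.0e-07). Summed fibroblast markers were 7438 to 9729 CPM in fresh and 25145 to 39047 CPM in cultured libraries, and myeloid markers 218 to 434 CPM in fresh and 23 to 67.5 CPM in cultured ones. Their part in the changes on culture was not tested.

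After culture, aged cells held less Ankrd1, Lats2 and Amotl2 than young cells. Over the 4 substrates, 3 of the 10 genes passed the test and all 3 were lower in aged cells, against 15% of 12841 genes (6.52% higher, 8.5% lower). Ankrd1 stood at -0.62 ± 0.05 (SE, adjusted p = 5.0e-09), Lats2 at -0.63 ± 0.11 (SE, adjusted p = 3.0e-04) and Amotl2 at -0.36 ± 0.05 (SE, adjusted p = 1.1e-05). The median over the 10 genes was -0.13, against -0.003 over all genes. Ankrd1 had been higher in aged cells before culture, and Amotl2 was lower in aged cells in both states. These calls remained when any single library was left out. Library numbers recur across the 4 substrates, and none is shared by young and aged cells. A preparation that followed the number would remain when a single library is left out. Leaving out a whole number was not tested. In the same comparison 8 of 10 endothelial markers tested were higher and 1 lower in aged cells, with a median of 0.999, and 9 of 12 fibroblast markers were lower. Summed endothelial markers were 79.5 to 145 CPM in young and 112 to 213 CPM in aged cultured libraries, with Vwf at 0 in YCF+StiffY. Summed fibroblast markers were 27548 to 39047 and 25145 to 31643 CPM. Their part in the changes was not tested. Crim1 passed without YCF+SoftY replicate 2 (0.31, adjusted p = 0.0046), Amotl1 without YCF+SoftA replicate 3 (-0.21, adjusted p = 0.046), and Ajuba without YCF+SoftA replicate 3 (-0.33, adjusted p = 0.041) or ACF+StiffA replicate 3 (-0.36, adjusted p = 0.032). Ajuba also passed with no filter (-0.29, adjusted p = 0.020) and with the replicate block by library number (-0.30, adjusted p = 0.011), and Amotl1 without the 4 libraries under 1500000 counts (-0.29, adjusted p = 0.011). The block by library number was fitted within each cell age. It leaves the spread between numbers out of this comparison, so it is no check on an age difference. The other 7 genes were between -0.29 (Ajuba, adjusted p = 0.11) and 0.19 (Crim1, adjusted p = 0.11).

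The age difference can be read on each substrate. On StiffY, Ankrd1 was 1479, 1542 and 1549 CPM in young and 667, 722 and 603 CPM in aged libraries, well apart. On SoftY it was 755 and 897 CPM in young and 756, 733 and 745 CPM in aged libraries, and the ranges overlapped. On SoftA it was 1238, 1117 and 1574 CPM and 767, 805 and 933 CPM, and on StiffA 1346, 1348 and 1676 CPM and 1095, 1018 and 1041 CPM, with no overlap on either. Amotl2 was 317 and 307 CPM in the young libraries and 293, 323 and 303 CPM in the aged on SoftY, again with overlap. On StiffY it was 412, 426 and 417 CPM in the young libraries and 297, 294 and 298 CPM in the aged. On StiffA it was 402, 442 and 406 CPM and 279, 265 and 311 CPM. Both stiff substrates thus separated the ages for Amotl2, whereas on SoftA young cells at 382, 391 and 349.7 CPM overlapped aged cells at 246, 282 and 354 CPM. Lats2 varied more between libraries of a group. On StiffY it was 141, 139 and 121 CPM in the young libraries and 103, 78.6 and 93.7 CPM in the aged, and on StiffA 194, 177 and 126 CPM and 87.9, 102 and 114 CPM. On SoftY it was 160.3 and 107 CPM and 86.2, 82.9 and 90.01 CPM. On these 3 substrates every young library was above every aged one. On SoftA the young libraries at 121, 186 and 72.8 CPM overlapped the aged ones at 100.3, 92.5 and 69.9 CPM.

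**Figure D3:**
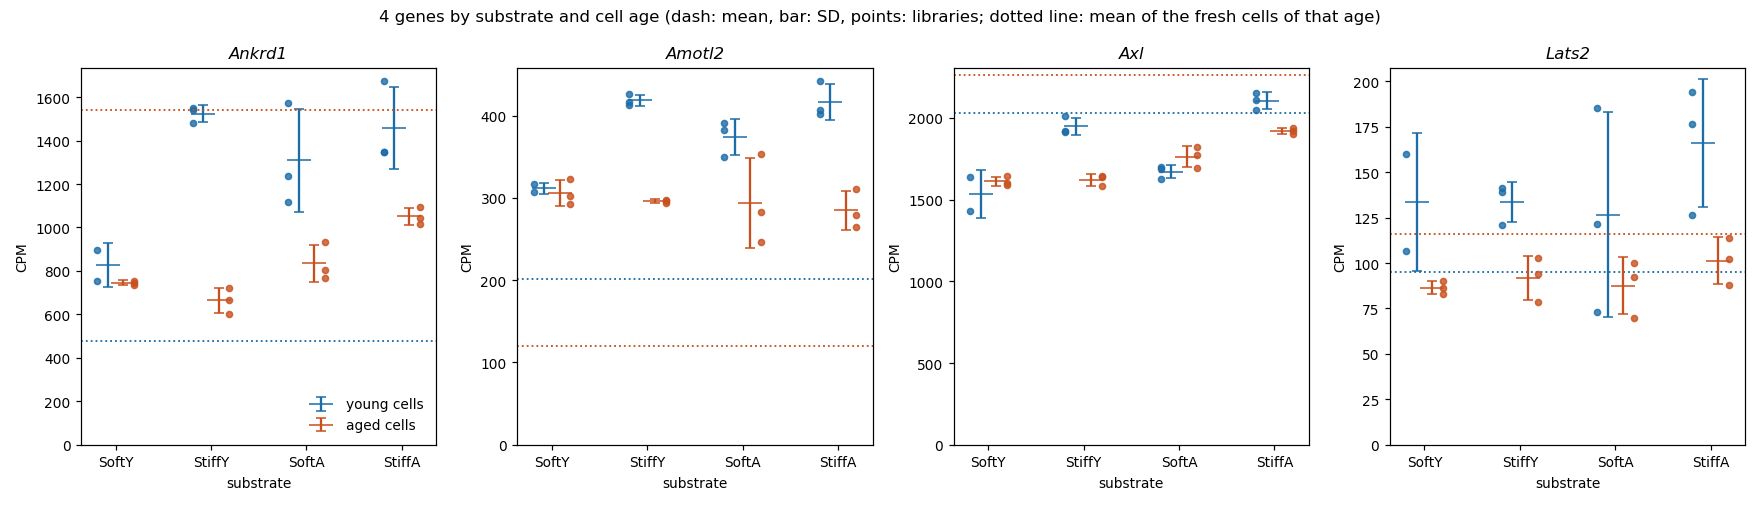
Ankrd1, Amotl2, Axl and Lats2 in CPM on linear axes from 0 by substrate, with points for libraries, dashes and bars for the mean and SD, blue for young and orange for aged cells, and dotted lines at the mean of fresh cells of each age. In young cells Axl was at least 1916 CPM in all 6 stiff libraries and at most 1702 CPM in the 5 soft ones.

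Taken over both ECMs, stiff gels raised Ankrd1, Axl and Amotl2 in young cells, but on aged ECM alone only Axl was called. The comparison took StiffY and StiffA together over SoftY and SoftA together, 6 libraries against 5, and 3 of the 10 genes passed, all higher, against 3.56% of 12841 genes (1.66% higher, 1.9% lower). Ankrd1 rose by 0.52 ± 0.08 (SE, adjusted p = 1.6e-04), Axl by 0.34 ± 0.05 (SE, adjusted p = 2.0e-05) and Amotl2 by 0.29 ± 0.07 (SE, adjusted p = 0.022). The median over the 10 genes was 0.19, against 0.001 over all genes. Axl was 1916 to 2154 CPM on stiff and 1432 to 1702 CPM on soft gels, and Amotl2 402 to 442 and 307 to 391 CPM, with no overlap for either. Ankrd1 was 1346 to 1676 CPM on stiff and 755 to 1574 CPM on soft gels, and overlapped through YCF+SoftA replicate 3 at 1574 CPM. The Amotl2 call was lost without YCF+SoftY replicate 1 (0.29, adjusted p = 0.075), YCF+SoftY replicate 2 (0.27, adjusted p = 0.10), YCF+StiffY replicate 2 (0.28, adjusted p = 0.052) or YCF+StiffA replicate 2 (0.26, adjusted p = 0.066). Without the 4 libraries under 1500000 counts it was 0.26 (adjusted p = 0.087). Of 12 fibroblast markers 6 fell with stiffness in young cells, and their sum was 27548 to 33413 CPM on stiff and 32849 to 39047 CPM on soft gels. Their part in these results was not tested. Crim1 was at 0.28 ± 0.12 (SE, adjusted p = 0.24), and without YCF+SoftY replicate 2 at 0.49 (adjusted p = 0.017). The remaining 6 ran from -0.06 (Wwtr1) to 0.21 (Ajuba), Yap1 at 0.16 and Tead1 at 0.15 among them.

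In aged cells, edgeR called none of the 10 genes between stiff and soft gels, with 6 libraries on each side, where 0.296% of all genes passed (0.00779% higher, 0.288% lower). None had an unadjusted p under 0.05, and DESeq2 called 0. Ankrd1 was at 0.08 with an interval of -0.07 to 0.24, Axl at 0.07 (-0.02 to 0.15) and Amotl2 at -0.05 (-0.19 to 0.09). The upper ends of all 3 intervals lie under the young estimates of the same genes. The difference between the ages passed the test for Axl, at -0.27 ± 0.06 (SE, adjusted p = 0.029), where 0.787% of all genes passed (0.319% higher, 0.467% lower). It was -0.43 ± 0.11 (SE, adjusted p = 0.065) for Ankrd1 and -0.34 ± 0.10 (SE, adjusted p = 0.17) for Amotl2. Under 5 alternatives Ankrd1 did pass: no filter (-0.44, adjusted p = 9.9e-04), the replicate block by title number (-0.40, adjusted p = 0.031) or by library number (-0.47, adjusted p = 0.0020), without the 4 libraries under 1500000 counts (-0.57, adjusted p = 0.0099) and 1 fit of all 29 libraries (-0.44, adjusted p = 0.025). Axl lost its call with no filter (-0.28, adjusted p = 0.16) and without the 4 libraries (-0.29, adjusted p = 0.065). These interactions are sensitive to single libraries. Axl lost its call without any of 18 of the 23 libraries (-0.28 to -0.22, adjusted p 0.053 to 0.21) and kept it without YCF+SoftY replicate 2, YCF+SoftA replicate 2 or 3, ACF+SoftA replicate 3 or YCF+StiffA replicate 1. Ankrd1 passed without YCF+SoftA replicate 3 (-0.51, adjusted p = 0.0041), and Amotl2 without ACF+SoftA replicate 1 (-0.38, adjusted p = 0.047). Crim1 passed without YCF+SoftY replicate 2 (-0.61, adjusted p = 0.048).

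**Figure D4:**
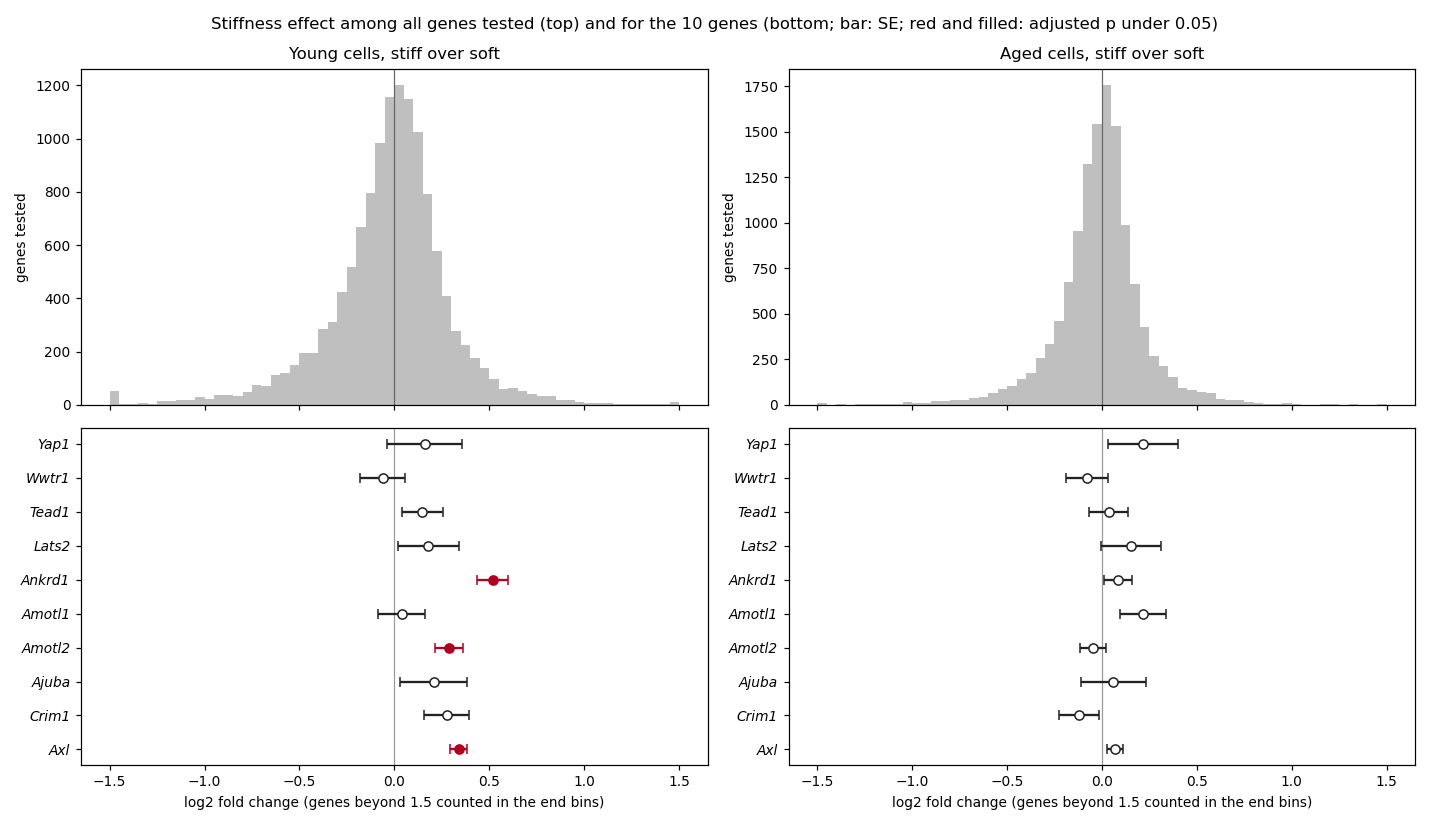
Log2 fold change of stiff over soft gels in young (left) and aged (right) cells, with the number of genes tested per bin above and the 10 genes with their SE below, filled and red where the adjusted p was under 0.05. In young cells 3 of the 10 points are filled, and in aged cells none is filled.

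The stiffness response of young cells was measured on each ECM. On young ECM (StiffY over SoftY) 4 genes rose, against 4.56% of all genes (2.12% higher, 2.45% lower). Ankrd1 rose by 0.89 ± 0.12 (SE, adjusted p = 3.0e-05), Crim1 by 0.71 ± 0.18 (SE, adjusted p = 0.015), Amotl2 by 0.43 ± 0.11 (SE, adjusted p = 0.021) and Axl by 0.35 ± 0.07 (SE, adjusted p = 0.0018). SoftY held 2 libraries here. Without the 4 libraries under 1500000 counts Crim1 was 0.64 (adjusted p = 0.055). Without YCF+SoftY replicate 1, Crim1 was 0.34 (adjusted p = 0.46), Axl 0.25 (adjusted p = 0.17) and Amotl2 0.44 (adjusted p = 0.13). Amotl2 was also lost without YCF+SoftY replicate 2 (0.40, adjusted p = 0.15) or without YCF+StiffY replicate 1 (0.43, adjusted p = 0.054), 2 (0.42, adjusted p = 0.070) or 3 (0.42, adjusted p = 0.051), and Crim1 without YCF+StiffY replicate 3 (0.63, adjusted p = 0.063). Crim1 measured 27.9 and 48.9 CPM on SoftY and 58.3, 59.8 and 69.6 CPM on StiffY. Its StiffY libraries were all higher, and the SoftY libraries were far apart.

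On aged ECM (StiffA over SoftA) only Axl rose in young cells, by 0.33 ± 0.06 (SE, adjusted p = 0.011), against 0.21% of all genes (0.125% higher, 0.0857% lower). Axl was 1684, 1624 and 1702 CPM on SoftA and 2051, 2107 and 2154 CPM on StiffA, with no overlap. The Axl call was lost without YCF+SoftA replicate 1 (0.33, adjusted p = 0.087), YCF+StiffA replicate 2 (0.33, adjusted p = 0.085) or YCF+StiffA replicate 3 (0.32, adjusted p = 0.060), and without the 4 libraries under 1500000 counts (0.37, adjusted p = 0.20). Ankrd1 was at 0.15 ± 0.11 (SE, adjusted p = 0.78) and Amotl2 at 0.15 ± 0.10 (SE, adjusted p = 0.75) on aged ECM. The difference between the Ankrd1 responses on aged and on young ECM was -0.74 ± 0.16 (SE, adjusted p = 0.026), where 0.615% of all genes passed (0.498% higher, 0.117% lower), and it was the only call among the 10. The call was lost without 10 of the 23 libraries (-0.78 to -0.57, adjusted p 0.050 to 0.25). These were YCF+SoftY replicate 1 (-0.61), the 3 YCF+StiffY libraries, YCF+SoftA replicates 1 and 3, YCF+StiffA replicates 1 and 2, and ACF+SoftY replicates 1 and 2. It was -0.48 (adjusted p = 0.40) without the 4 libraries under 1500000 counts. Crim1 was at -0.88 ± 0.23 (SE, adjusted p = 0.077) in this interaction, and at -1.31 (adjusted p = 0.0037) without YCF+SoftY replicate 2. For Axl it was -0.02 with an interval of -0.20 to 0.17. Summed pericyte and smooth muscle markers were 366 to 367 CPM on SoftY, 96.9 to 124 CPM on StiffY, 168 to 213 CPM on SoftA and 144 to 160 CPM on StiffA in young cells. Most of the SoftY sum was the gene Steap4, with means of 274, 42.9, 91.4 and 72.2 CPM in the same order. Ndufa4l2 was at 26.7, 23.1, 38.9 and 35.8 CPM. Of the 5 markers tested, 1 was called in the stiffness by ECM interaction. The part of these markers in the results was not tested.

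In aged cells none of the 10 genes was called by edgeR for StiffY over SoftY (0.0545% of all genes), for StiffA over SoftA (0.366%) or for the stiffness by ECM interaction (0.0234%). DESeq2 called 0 in each. For StiffY over SoftY none had an unadjusted p under 0.05. For StiffA over SoftA 2 did, Ankrd1 at 0.34 ± 0.11 (SE, adjusted p = 0.30) and Axl at 0.13 ± 0.06 (SE, adjusted p = 0.63). Ankrd1 passed there with no filter (0.34, adjusted p = 0.041) or with the replicate block by library number (0.34, adjusted p = 0.049). For the interaction 1 did, Ankrd1 at 0.50 ± 0.15 (SE, adjusted p = 0.67).

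Averaged over soft and stiff gels, Ankrd1 was higher on aged ECM at both cell ages, but in young cells the mean was higher between the soft gels alone and the call did not hold without most single libraries. In aged cells, 2 of the 10 genes rose on aged over young ECM, against 7.44% of all genes (4.14% higher, 3.3% lower), Ankrd1 by 0.42 ± 0.08 (SE, adjusted p = 6.5e-04) and Axl by 0.19 ± 0.04 (SE, adjusted p = 0.0043). Ankrd1 was 767 to 1095 CPM in the 6 libraries on aged ECM and 603 to 756 CPM in the 6 on young ECM, and Axl 1693 to 1938 and 1581 to 1644 CPM. Neither overlapped, and both calls remained when any single library was left out. Crim1 was at 0.31 ± 0.11 (SE, adjusted p = 0.074), and passed without YCF+SoftY replicate 1 (0.31, adjusted p = 0.031) or 2 (0.31, adjusted p = 0.031), libraries of young cells that share the fit, or with the replicate block by library number (adjusted p = 0.047). In the same comparison 5 of 10 endothelial markers tested rose and none fell, with a median of 0.79. Their sum over the 12 markers was 112 to 149 CPM on young and 150 to 213 CPM on aged ECM, and their part in the changes of Ankrd1 and Axl was not tested.

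In young cells only Ankrd1 rose on aged ECM, by 0.30 ± 0.08 (SE, adjusted p = 0.044), against 2.49% of all genes (1.67% higher, 0.825% lower). Its mean was 826 CPM on SoftY and 1309.6 CPM on SoftA, but 1523 CPM on StiffY and 1457 CPM on StiffA, so that on stiff gels it was not higher with aged ECM. The stiffness by ECM interaction given above, -0.74, is the test of that difference. The libraries of the 2 ECMs overlapped, at 1117 to 1676 CPM on aged and 755 to 1549 CPM on young ECM. The call was lost without 20 of the 23 libraries (0.21 to 0.33, adjusted p 0.051 to 0.29) and kept only without YCF+SoftY replicate 2, YCF+SoftA replicate 2 or YCF+StiffA replicate 1. It was also lost with RLE factors (0.29, adjusted p = 0.060), with the replicate block by title number (0.24, adjusted p = 0.0501) and without the 4 libraries under 1500000 counts (0.19, adjusted p = 0.37). The interaction of cell age and ECM was 0.13 ± 0.11 (SE, adjusted p = 0.84) for Ankrd1, and edgeR called none of the 10 genes (0.0935% of all genes), DESeq2 called 0, and none had an unadjusted p under 0.05. Wwtr1 was at 0.29 ± 0.12 (SE, adjusted p = 0.25) in young and 0.11 ± 0.11 (SE, adjusted p = 0.59) in aged cells, neither past the threshold.

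With both properties changed at once (StiffA over SoftY), Ankrd1 and Axl rose in cells of both ages. In young cells 3 of 10 genes rose, against 5.26% of all genes (2.99% higher, 2.27% lower), Ankrd1 by 0.82 ± 0.12 (SE, adjusted p = 7.1e-05), Axl by 0.45 ± 0.07 (SE, adjusted p = 6.8e-05) and Amotl2 by 0.42 ± 0.11 (SE, adjusted p = 0.022). In aged cells 2 of 10 rose, against 4.21% of all genes (2.24% higher, 1.97% lower), Ankrd1 by 0.51 ± 0.11 (SE, adjusted p = 0.0047) and Axl by 0.26 ± 0.06 (SE, adjusted p = 0.0093). Axl measured 1432 and 1636 CPM in young cells on SoftY and 2051, 2107 and 2154 CPM on StiffA. In aged cells it measured 1605, 1587 and 1644 CPM on SoftY and 1938, 1899 and 1919 CPM on StiffA. At both ages all StiffA libraries were above all SoftY libraries. Amotl2 in aged cells was at -0.09 ± 0.10 (SE, adjusted p = 0.70). The young Amotl2 call was lost without YCF+SoftY replicate 1 (0.43, adjusted p = 0.12), YCF+SoftY replicate 2 (0.39, adjusted p = 0.16) or YCF+StiffA replicate 2 (0.37, adjusted p = 0.084). The aged Axl call was lost without ACF+SoftY replicate 1 (0.25, adjusted p = 0.066), ACF+SoftY replicate 2 (0.25, adjusted p = 0.064) or ACF+StiffA replicate 1 (0.24, adjusted p = 0.068), or with no filter (0.26, adjusted p = 0.062). Without YCF+SoftY replicate 2, Crim1 rose in young cells by 0.87 (adjusted p = 0.0092).

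Yap1, Wwtr1 and Tead1 passed no test between substrates or between ages in culture. Yap1 group means in culture ran from 15.02 ± 2.91 CPM (YCF+SoftY, n = 2) to 22.3 ± 1.68 CPM (ACF+StiffY, n = 3), and the fresh means were 16.1 ± 2.74 CPM in the young libraries and 18.1 ± 4.07 CPM in the aged. The other Yap1 means were 18.9 CPM in ACF+SoftY, 21.5 in YCF+StiffY, 22.0 in YCF+SoftA, 18.8 in ACF+SoftA, 19.9 in YCF+StiffA and 21.2 in ACF+StiffA. No 2 groups that neighbour each other in this order differed beyond their spread. Wwtr1 was highest in YCF+SoftA (82.4 ± 3.26 CPM) and, among cultured groups, lowest in ACF+StiffY (59.8 ± 6.27 CPM). The other cultured Wwtr1 means were 67.3 CPM in YCF+SoftY, 65.2 in YCF+StiffY, 78.4 in YCF+StiffA, 73.6 in ACF+SoftY, 68.1 in ACF+SoftA and 75.2 in ACF+StiffA. Tead1 in culture stayed between 114 ± 24.3 CPM in YCF+SoftY and 138 ± 19.0 CPM in ACF+SoftY. Its other cultured means were 134, 129 and 135 CPM in young cells on StiffY, SoftA and StiffA, and 135, 128 and 137 CPM in aged cells. Only the fresh aged group, at 73.2 ± 7.01 CPM, was separate from its neighbour, fresh young cells at 101 ± 13.8 CPM.

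The scaffold genes other than Amotl2 and the target Crim1 also had broad spreads. Amotl1 was highest in fresh young cells at 231 ± 22.7 CPM and fresh aged cells at 201 ± 12.9 CPM. In culture its means were 184, 171, 169 and 194 CPM in young cells on SoftY, StiffY, SoftA and StiffA, and 162, 179, 138 and 166 CPM in aged cells. All cultured groups of Amotl1 overlapped their neighbours in this order. Ajuba ran from 23.4 ± 3.74 CPM in fresh aged cells to 64.4 ± 14.3 CPM in YCF+StiffA, and its young means on SoftY, StiffY and SoftA were 51.3, 58.9 and 54.5 CPM. Its aged means were 51.6, 52.0, 39.7 and 44.7 CPM on SoftY, StiffY, SoftA and StiffA. Crim1 was 22.6 ± 7.16 CPM in fresh young and 26.2 ± 1.75 CPM in fresh aged cells. It reached 67.1 ± 5.02 CPM in ACF+SoftA and 63.3 ± 2.46 CPM in ACF+StiffA, against 55.8 ± 6.09 CPM in ACF+SoftY and 50.2 ± 3.37 CPM in ACF+StiffY. In young cells it was 56.8 CPM on SoftA and 51.3 CPM on StiffA.

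The order of the 10 groups was not the same for Ankrd1, Amotl2, Axl and Lats2. For Ankrd1 it was fresh ACF, YCF+StiffY, YCF+StiffA, YCF+SoftA, ACF+StiffA, ACF+SoftA, YCF+SoftY, ACF+SoftY, ACF+StiffY and fresh YCF, from 1539.5 ± 34.5 down to 476 ± 4.91 CPM. The ranges were separate between YCF+SoftA and ACF+StiffA, between ACF+StiffA and ACF+SoftA, between ACF+SoftY and ACF+StiffY and between ACF+StiffY and fresh YCF. For Amotl2 the 4 young cultured groups held the top and fresh cells the bottom, with YCF+StiffY first at 418 ± 6.97 CPM and fresh ACF last at 120.1 ± 9.77 CPM. For Axl both fresh groups were near the top with YCF+StiffA, and YCF+SoftY was last at 1534 ± 145 CPM. For Lats2 the 4 young cultured groups were again above all others, led by YCF+StiffA at 166 ± 35.2 CPM, but no neighbours had separate ranges.

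Pathway genes outside the 10 were also compared between substrates. Of the 24 other Hippo genes tested, 1 fell and none rose with stiffness in young cells, the protocadherin gene Dchs1 at -0.82 ± 0.22 (SE, adjusted p = 0.035), and in aged cells 0 passed. These counts stand beside 3.56% of all genes in young and 0.296% in aged cells. Of the 12 further targets tested 0 passed with stiffness at either age. Ccn2 rose with stiffness in young cells by 0.47 ± 0.11 (SE, adjusted p = 0.015). In aged cells both CCN genes rose on aged ECM, Ccn1 by 0.21 ± 0.06 (SE, adjusted p = 0.036) and Ccn2 by 0.37 ± 0.11 (SE, adjusted p = 0.036). On the same ECM, Tgfb2 rose in young cells by 0.38 ± 0.09 (SE, adjusted p = 0.016) and in aged cells by 0.31 ± 0.08 (SE, adjusted p = 0.016), and the kinase gene Nuak2 rose in aged cells by 0.51 ± 0.10 (SE, adjusted p = 0.0013). Mob1a, a LATS cofactor gene, rose there by 0.30 ± 0.08 (SE, adjusted p = 0.022) and the kinase gene Taok3 fell by a log2 change of -0.44 ± 0.13 (SE, adjusted p = 0.034). Between aged and young cultured cells, 4 of the 24 Hippo genes passed, beside 15% of all genes, and all were lower, led by Dchs1 at -0.995 ± 0.17 (SE, adjusted p = 1.2e-04). Of the 12 targets 1 was higher (Tgfb2, 0.33 ± 0.06 (SE, adjusted p = 3.1e-04)) and 3 lower, led by Nuak2 at -0.52 ± 0.07 (SE, adjusted p = 5.9e-06). Ccn1 was lower in aged cultured cells, at -0.96 ± 0.04 (SE, adjusted p = 1.4e-14).

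Within groups, some of the 10 genes deviated together and others in opposite directions. After the group means were removed, the strongest correlation among the 10 genes over the 23 cultured libraries was between Lats2 and Ankrd1, at r = -0.92. Amotl1 and Ankrd1 followed at r = -0.83, Lats2 and Amotl1 at r = 0.82, and Amotl2 and Ajuba at r = 0.67. Without the 2 libraries farthest from the median of Lats2, its values were -0.88 with Ankrd1 and 0.71 with Amotl1. Libraries share depth and composition within each point, and no test was made. In young cells, YCF+SoftY replicate 2 and replicate 3 on the other substrates share a library number. For Lats2 they deviated by -0.29, -0.14, -0.69 and -0.37 on SoftY, StiffY, SoftA and StiffA. All of them were also below their group mean for Amotl1 and above it for Ankrd1. The 2 YCF+SoftY libraries mirror each other by construction. The part of a shared preparation in these correlations was not tested. In YCF+SoftA, Lats2 was 121, 186 and 72.8 CPM and Amotl1 179.8, 208 and 119.6 CPM, so that replicate 2 was the highest and replicate 3 the lowest for both. Ankrd1, at 1238, 1117 and 1574 CPM there, had the reverse order.

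**Figure D5:**
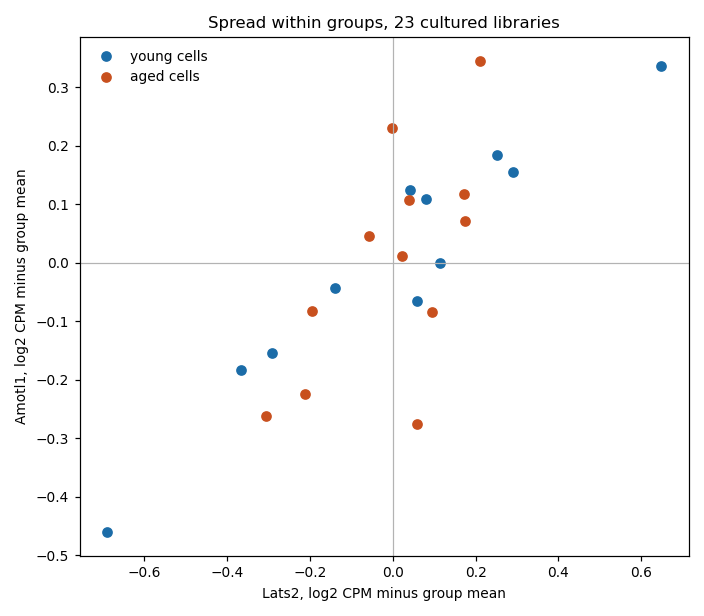
Deviation of Amotl1 (vertical) against Lats2 (horizontal) from the group mean of log2 CPM, with 1 point per cultured library (23), blue for young and orange for aged cells. The points rise together, with r = 0.82, and the points farthest from 0 are young cells on SoftA.

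The genes whose pattern was most like that of each member were sought among 8762 genes by Pearson r of log2 CPM. Over all 29 libraries, Ankrd1 was nearest to Lmcd1 (0.95) and Csrnp1 (0.95), Amotl2 to Mmp16 (0.96) and Cavin2 (0.95), and Axl to Coro1c (0.91) and Clic4 (0.90). Over the 23 cultured libraries, Ankrd1 was nearest to Inhba (0.97) and Plcb4 (0.94), Amotl2 to Enc1 (0.89) and Igfbp2 (0.88), and Axl to Myo1c (0.90) and Jpt2 (0.88). Lats2 was nearest to Arpc5 (0.87) and Bcl2l1 (0.86) over 29 libraries and to Fbxl18 (0.92) and Ppp2r5c (0.92) over 23. Tead1 was nearest to Itgb8 (0.93) and Ahnak (0.91) over 29 libraries, and Wwtr1 to Cnst (0.81) and Cog6 (0.80). Amotl1 was nearest to Znrf3 (0.92) and Nmt2 (0.90), Ajuba to Cpe (0.93) and Cdc42ep1 (0.93), and Crim1 to Cd151 (0.93) and Fads1 (0.92). For Yap1 the highest values were 0.58 (Alg14) and 0.56 (Immp1l), the weakest likeness of the 10.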

How the data were processed

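Per the labels' protocols, 20 ng of RNA went into each library, made with NEBNext's low input kit. The submitters' processing notes name STAR 2.7.8a and mm39 for the alignment. Raw gene counts were deposited by the authors for 55357 genes in 29 libraries. The sources used here state neither the counter's version nor its annotation or strand setting, and 1362 genes have no symbol.

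The tests were run in edgeR 4.0.16 under R 4.3.3. Genes were kept by filterByExpr with the groups, scaled with TMM factors and given quasi-likelihood F tests. Benjamini-Hochberg adjustment covered all genes of a comparison, and calls needed an adjusted p under 0.05. Fresh cells were fitted alone (6 libraries, 11786 genes), cultured cells in 8 groups (23 libraries, 12841 genes), and culture against fresh over 29 libraries (13523 genes), in 19 comparisons in all. Means over substrates weigh groups equally. Each SE is the size of the log2 fold change divided by the root of its F value, and intervals use the test's degrees of freedom. The code was tested on simulated data. Alternatives were DESeq2 1.42.0, RLE factors, no filter, a replicate block, 1 fit of all 29 libraries and leaving out each library. A block by library number and a fit without the 4 libraries under 1500000 counts were chosen after seeing the data.

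The 10 genes and the pathway and marker lists were chosen with earlier results of these data known. All 10 genes are described, up to 3 called genes with the smallest p are named from each pathway list in a comparison, and for likeness the 2 genes with the highest r among genes of at least 10 CPM. Exon lengths came from GENCODE M21 (GRCm38). Replicate pairs differed by 1.81 to 10.1 times the sampling noise (chi-square per degree of freedom, 28 pairs), so none was taken as a repeat deposit of another. Shared animals or RNA were not tested.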

Additional observations from a re-analysis of the deposited data

Results flagged for a closer look

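The response to culture differed between young and aged cells for 5 genes by the test of the interaction (aged minus young response). It was -2.31 ± 0.11 (SE, adjusted p = 4.7e-16) for Ankrd1, -0.91 ± 0.22 (SE, adjusted p = 0.0034) for Lats2, -0.22 ± 0.06 (SE, adjusted p = 0.014) for Axl, 0.54 ± 0.17 (SE, adjusted p = 0.019) for Tead1 and 0.39 ± 0.11 (SE, adjusted p = 0.01) for Amotl2. The response to stiffness differed between the ages for Axl, at -0.27 ± 0.06 (SE, adjusted p = 0.029). In young cells the stiffness response differed between the 2 ECMs for Ankrd1, at -0.74 ± 0.16 (SE, adjusted p = 0.026). Only the culture differences of Ankrd1 and Lats2 kept their call when any single library was left out.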

How the results depend on the processing

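No change of a called gene reversed its sign: of 49 such changes, 0 of 1157 values from leaving out 1 library did, 98 lost the call, and 20 of the 49 changes lost it at least once. DESeq2 lost 3 calls, RLE factors 1, no filter 5 and the replicate block by title number 4 of 49. The replicate block by library number lost 0 of 43, leaving out the 4 shallow libraries 6 of 43, and the fit of all 29 libraries 2 of 27. For age in culture either replicate block was fitted within each cell age and is no check on the difference. The number of the 10 genes called moved by over 1.5 times as follows. In fresh cells it was 3 in place of 6 with DESeq2 and with the replicate block by title number. For aged over young ECM in young cells it was 0 in place of 1 with RLE factors, the replicate block by title number or without the 4 shallow libraries. For the stiffness by ECM interaction and for StiffA over SoftA, both in young cells, it was 0 in place of 1 without the 4 shallow libraries. For the interaction of cell age and stiffness it was 2 in place of 1 with either replicate block and with 29 libraries in 1 fit, where Ankrd1 passed besides Axl. For StiffA over SoftY in aged cells it was 1 in place of 2 without a filter, and for StiffA over SoftA in aged cells 1 in place of 0 without a filter or with the block by library number. The cause was not tested. Leaving out 1 library gave 3 to 6 genes called in fresh cells, 7 to 9 for culture at either age, 3 to 5 for the interaction of culture and age and for age in culture, and 2 to 3 for stiffness in young and ECM in aged cells. It gave 0 to 1 for ECM in young cells and for StiffA over SoftA in young cells, and 0 to 2 for the stiffness by ECM interaction in young cells and for cell age by stiffness. It gave 2 to 3 for StiffA over SoftY in young and 1 to 2 in aged cells, 1 to 4 for StiffY over SoftY in young cells, and 0 throughout in the other 5 comparisons.

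Counts over all genes also moved. For ECM in aged cells 956 became 1492 and 1630 with the blocks by title and library number, and for StiffA over SoftY in aged cells 541 became 861 and 977. For the stiffness by ECM interaction in young cells 79 became 186 without a filter, 267 with the block by library number, 145 with 29 libraries and 34 without the 4 shallow ones. For StiffA over SoftA in young cells 27 became 78, 52 and 0 (no filter, block by library number, without the 4), and in aged cells 47 became 109 and 93 (no filter, block by library number). For cell age by ECM 12 became 19 to 111, for stiffness by ECM in aged cells 3 became 5 to 23, and for StiffY over SoftY in aged cells 7 became 11. RLE factors and DESeq2 moved the median of all genes by at most 0.020.

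Replicate numbers are shared by groups, and the labels tie none to an animal or day. Within-group deviations of same-numbered cultured libraries correlated at r = -0.25 to 0.35 in young and -0.045 to 0.21 in aged cells, and at -0.074 to 0.086 in fresh cells, numbered by title. By library number 9 of 15 young pairs were over 0.1 (median 0.11, against -0.063 for different numbers), and 4 of 18 aged pairs (median 0.056 against -0.059). Subtracting the group mean pushes the values for different numbers to the opposite sign, so they are no independent reference. The lowest r by library number was -0.016 in young and -0.045 in aged cells. Not every pair was over 0.1, and the main tests took the samples as unpaired by either number. That rule cannot tell paired from unpaired libraries, and the main p-values treat all libraries as independent. Whether a shared batch follows the library number was not tested. With 2 or 3 libraries a group and 18 to 74 counts of Yap1 per library, the intervals of Yap1 were wide, and the size of change detectable for it was not tested.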
